A study of Mus musculus with 6 samples.

Results

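The genes described here are 10 transcription factors and early response genes, many of them switched on within minutes of a stimulus. They are the Fos family (Fos, Fosb, Fosl1, Fosl2), the Jun family (Jun, Junb, Jund), Egr1, Atf3 and Ier3. They were chosen by name, and every probe of theirs was taken that was detected (detection p-value under 0.05) on at least 3 of the 6 bead arrays. Of the 10 genes, 9 had a probe and all 9 were detected, out of 9348 genes that passed the same filter. No probe named Fosl1 was analysed here. The 9 genes had 12 probes, of which 9 were kept, 1 for each gene, out of 16969 probes kept in all. Each kept probe was detected on 6 of 6 arrays, with a highest detection p-value of 0.00427, that of Atf3 on 4T1-SC replicate 1. The probes left out were 2 of Fosl2, detected on 2 and 1 arrays, and 1 of Junb, detected on 0 arrays.

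The RNA came from 4T1, a mammary carcinoma line that arose spontaneously in a BALB/c mouse and metastasises from the mammary gland. The cells labelled 4T1-MMP3lo had been stably transfected with a short hairpin RNA against Mmp3, the gene of the secreted protease stromelysin-1, and the 4T1-SC cells with the matching scrambled hairpin vector. Both populations were grown in serum-containing RPMI medium and kept under antibiotic selection, and neither received any other treatment. Each group had 3 arrays of biotin-labelled total RNA, 1 on each of 3 labelled dates, which are called the first, the second and the third date here and number the replicates. What the date marks (culture, harvest or hybridisation) is not given in the sources used here. The 4T1-MMP3lo labels also carry a suffix that may stand for 1 clone.

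AP-1 is a dimer of a Jun protein with a Fos, ATF or second Jun protein, held together by a leucine zipper. It binds the TPA response element TGANTCA and, with ATF partners, the cAMP response element TGACGTCA. Serum and growth factors raise the RNA of Fos and Egr1 through ERK kinases and serum response factor, and that of Jun largely through JNK and AP-1 itself, and the response fades within hours. In carcinoma cells AP-1 is best known for driving matrix metalloproteinase genes, Mmp3 among them.

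The stretches just before the annotated starts of Fos, Junb, Jun, Ier3 and Mmp3 are shown because Fos, Junb and Jun passed the hairpin test when the first date was set aside, Ier3 holds an NF-κB type sequence, and Mmp3, the targeted gene, holds a TPA response element. They are the 200 bases before the RefSeq start in build GRCm38.p6, written 5′ to 3′ on the gene's own strand, with matches to the motifs searched in capitals.
Fos (chr12:85473690-85473889, plus strand): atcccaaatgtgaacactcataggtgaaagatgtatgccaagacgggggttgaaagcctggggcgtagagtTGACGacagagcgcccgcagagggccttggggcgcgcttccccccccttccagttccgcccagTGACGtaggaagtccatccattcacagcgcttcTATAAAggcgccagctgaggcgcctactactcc
Junb (chr8:84978749-84978948, minus strand): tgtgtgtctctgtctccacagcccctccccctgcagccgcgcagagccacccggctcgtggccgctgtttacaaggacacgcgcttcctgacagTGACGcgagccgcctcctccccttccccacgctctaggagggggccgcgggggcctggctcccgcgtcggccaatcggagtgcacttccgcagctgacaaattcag
Jun (chr4:95052223-95052422, minus strand): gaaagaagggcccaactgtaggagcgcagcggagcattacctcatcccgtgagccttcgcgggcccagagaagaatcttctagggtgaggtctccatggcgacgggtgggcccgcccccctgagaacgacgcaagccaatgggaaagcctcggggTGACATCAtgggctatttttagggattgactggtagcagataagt
Ier3 (chr17:35821513-35821712, plus strand): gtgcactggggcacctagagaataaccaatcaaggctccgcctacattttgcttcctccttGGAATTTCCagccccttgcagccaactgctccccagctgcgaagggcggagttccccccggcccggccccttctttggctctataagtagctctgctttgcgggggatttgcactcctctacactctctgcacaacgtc
Mmp3 (chr9:7445622-7445821, plus strand): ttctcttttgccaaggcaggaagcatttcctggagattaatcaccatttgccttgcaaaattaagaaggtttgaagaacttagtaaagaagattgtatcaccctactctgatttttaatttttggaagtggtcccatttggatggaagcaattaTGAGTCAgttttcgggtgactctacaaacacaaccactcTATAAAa
The motifs were searched on both strands of the same window in 8 of the 9 measured genes (all but Egr1) and in all 32851 windows of that length, and a match is a description, not a bound site. The cAMP response half-site TGACG, which lies inside the full element TGACGTCA, stood in the windows of 4 of the 8 genes (Fos, Fosb, Junb, Atf3) and in 15.7% of all windows. Fos held it at positions -129 to -125 and -66 to -62 from the start, and Junb at -106 to -102. The Fosb window overlaps 73 bases of the gene as annotated and is not printed. Jun held TGACATCA, the variant element through which Jun acts on its own gene, at -45 to -38, as did 2.66% of all windows at any position. Ier3 held GGAATTTCC, a sequence of the NF-κB type, at -139 to -131, against 0.25% of all windows. Mmp3 held TGAGTCA, a TPA response element, at -46 to -40, and TGANTCA stood in 5.48% of all windows and in 0 of the 8. The TATA box TATAAA stood in Fos and Mmp3 and in 9.96% of all windows. The full TGACGTCA (1.47% of all windows) and the CArG box of serum response factor (1.18%) stood in 0 of the 8 windows. Sites more than 200 bases before the start were not searched, so an absence here holds for the window and not for the gene.

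The targeted gene did not separate the groups. The brightest of 3 Mmp3 probes had log2 intensities of 10.64, 13.40 and 13.33 on the arrays labelled 4T1-MMP3lo, against 11.52, 12.98 and 13.04 on the 4T1-SC arrays. It was lower in the cells labelled 4T1-MMP3lo on the first date and higher on the later dates, and the limma fits over all probes gave the 3 probes differences of -0.06, 0.09 and -0.04 with adjusted p of 0.990, 0.985 and 0.993. For this reason the groups are called by their labels. The arrays resembled each other in depth of signal, with 16722 to 17548 of 45281 probes detected on each. Of 7 epithelial markers, 6 were detected on all arrays (Krt8, Krt18, Krt19, Cdh1, Cldn3, Cldn7) and Epcam on none. Of 8 leukocyte markers with a probe, 6 were detected on no array, among them Ptprc, the pan-leukocyte marker. Cd3e and Csf1r were each detected on 4 arrays, and no leukocyte marker was detected on all 6. 4T1-SC replicate 1 took the lowest array weight in limma (0.175), in a fit without the date. The hairpin comparison is given with and without this array. Over all kept probes it was most like the other array of the first date (r = 0.978) and least like 4T1-SC replicate 2 (r = 0.938). Whether the array or its date stands apart was not tested.

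**Figure D1:**
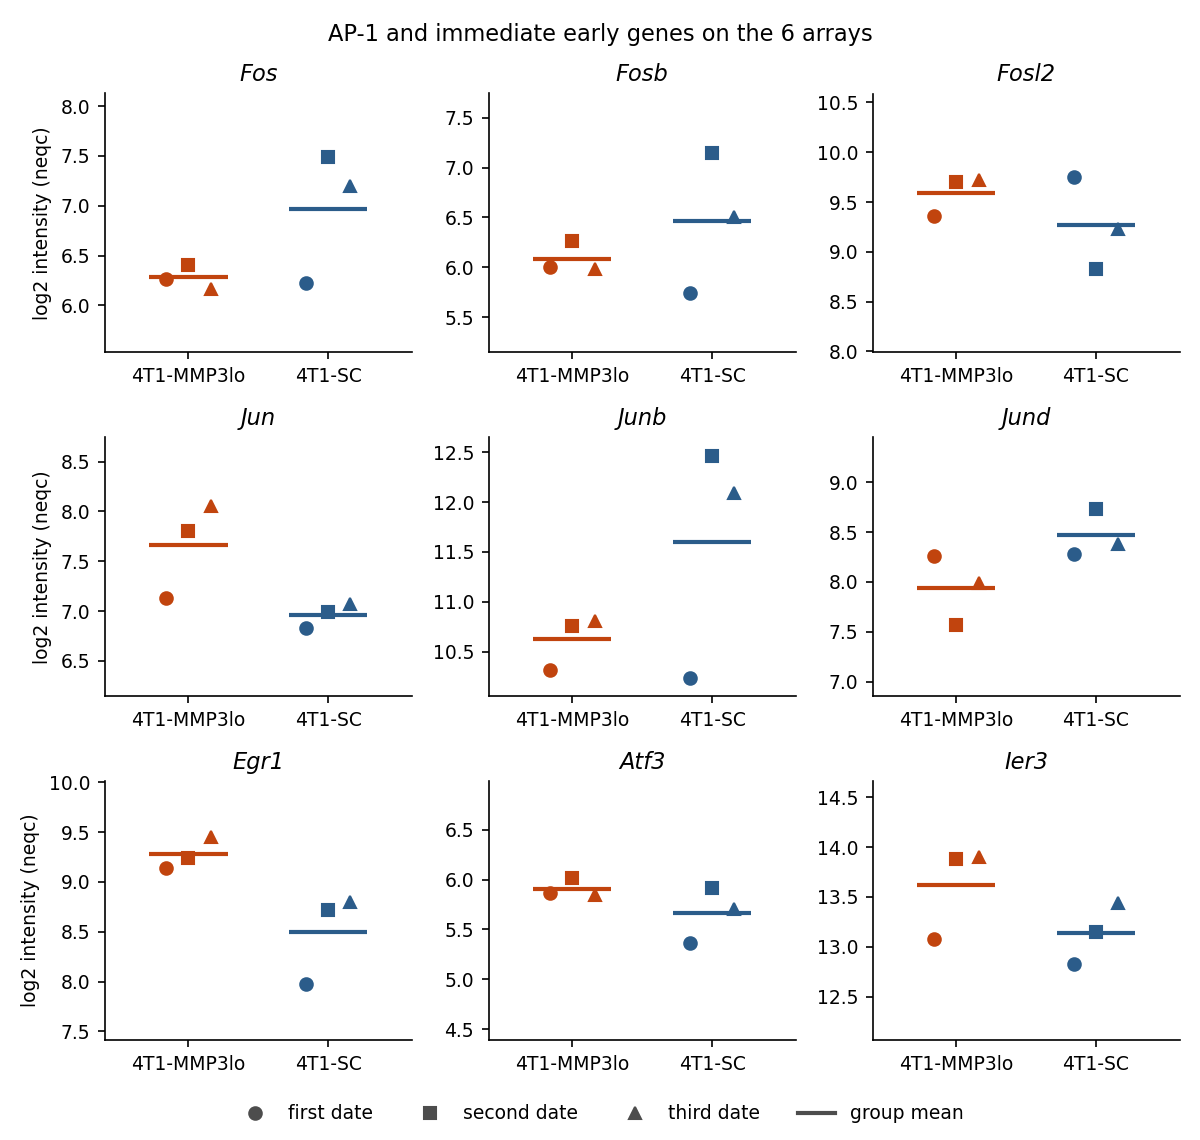
Log2 intensity after normexp background correction and quantile normalization (y axis, each panel with the same span) of the 9 measured genes, with the 3 arrays labelled 4T1-MMP3lo left of the 3 4T1-SC arrays, symbols for the dates and bars for the group means. Fos, Fosb and Junb are high on 4T1-SC replicates 2 and 3 alone, while Egr1 and Jun are higher on every array labelled 4T1-MMP3lo than on any 4T1-SC array.

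The comparison of the hairpin groups asked whether the early transcription factors differed in cells carrying the Mmp3 hairpin. Egr1 and Jun had the highest differences, 0.78 and 0.70 on the log2 scale, and Junb and Fos the lowest, -0.97 and -0.69. None of these passed the test. In limma's fit across all 9348 genes, 0 of the 9 genes reached a Benjamini-Hochberg adjusted p under 0.05, where 1.09% of all genes did, and 2 (Jun and Egr1) had an unadjusted p under 0.05, where 12.2% of all genes did. On the probe level 0 of the 9 probes passed, where 0.748% of all probes did. The 9 genes had a median log2 difference of 0.25, against 0.02 over all genes. The RNA was taken from whole cultures, so fewer expressing cells and less RNA per cell cannot be told apart.

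Among the Fos family, Fos itself, the founding member, whose RNA response to serum is brief, gave log2 intensities of 6.27, 6.41 and 6.17 on the arrays labelled 4T1-MMP3lo and 6.23, 7.49 and 7.20 on the 4T1-SC arrays. The groups overlapped, because 4T1-SC replicate 1 lay among the arrays labelled 4T1-MMP3lo while 4T1-SC replicates 2 and 3 lay above all of them. The difference was -0.69 ± 0.31 (SE, n = 3 arrays each), 1.61-fold lower in the cells labelled 4T1-MMP3lo, with an adjusted p of 0.436 in limma. The Fos signal was weak, with deposited intensities of 138 to 297 where the array medians were 96.6 to 112.6. Its difference was -0.53 at an offset of 50 and -0.39 without background correction. Fosb, a close relative of Fos, was also highest on 4T1-SC replicates 2 and 3, with 6.0, 6.26 and 5.98 on the arrays labelled 4T1-MMP3lo and 5.74, 7.15 and 6.50 on the 4T1-SC arrays. Its difference was -0.38 ± 0.33 and its adjusted p 0.726. Fosb was weak too, with deposited intensities of 122 to 255, and its difference was -0.21 without background correction. Fosl2, which encodes Fra-2, a Fos protein without a strong activation domain, ran the other way. It read 9.36, 9.71 and 9.72 on the arrays labelled 4T1-MMP3lo and 9.75, 8.83 and 9.23 on the 4T1-SC arrays. Here 4T1-SC replicates 2 and 3 were the lowest of the 6 arrays and 4T1-SC replicate 1 the highest, and the difference was 0.33 ± 0.26 (adjusted p 0.690).

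In the Jun family the differences took both signs. Junb, a Jun protein that can restrain Jun and that pairs readily with Fos, had the widest spread of the 9 genes, 2.23 log2 units over the 6 arrays, wider than that of 97.3% of all genes. Its log2 intensities were 10.32, 10.75 and 10.81 on the arrays labelled 4T1-MMP3lo and 10.24, 12.47 and 12.10 on the 4T1-SC arrays. The deposited intensities before any normalization showed the same order, 1482, 1618 and 2037 on the arrays labelled 4T1-MMP3lo and 1130, 6328 and 4452 on the 4T1-SC arrays. Thus 4T1-SC replicate 1 was the lowest of all 6 arrays and the other 4T1-SC arrays the highest. The difference over all arrays was -0.97 ± 0.52, with an adjusted p of 0.519. Jun, the strongest activator of the family, read 7.13, 7.81 and 8.06 on the arrays labelled 4T1-MMP3lo and 6.83, 6.99 and 7.07 on the 4T1-SC arrays. The groups did not overlap, the 4T1-SC arrays lay closer together than the arrays labelled 4T1-MMP3lo, and the difference was 0.70 ± 0.26 (1.62-fold, adjusted p 0.318). Jund, the Jun protein that is present in resting cells and responds least to serum, read 8.26, 7.57 and 7.99 on the arrays labelled 4T1-MMP3lo and 8.29, 8.74 and 8.38 on the 4T1-SC arrays. Its groups did not overlap either, though the nearest arrays read 8.26 and 8.29, and its difference was -0.53 ± 0.23 (adjusted p 0.413).

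Egr1, a zinc finger factor induced by the same ERK and serum response factor route as Fos, had the smallest p of the 9 genes. Its log2 intensities were 9.14, 9.24 and 9.45 on the arrays labelled 4T1-MMP3lo and 7.98, 8.71 and 8.80 on the 4T1-SC arrays. Every array labelled 4T1-MMP3lo lay above every 4T1-SC array, and the difference was 0.78 ± 0.25 (1.72-fold, adjusted p 0.246 in limma). Atf3, a stress-induced factor that pairs with Jun proteins, had the narrowest spread of the 9 genes, 0.65 log2 units. It read 5.86, 6.02 and 5.84 on the arrays labelled 4T1-MMP3lo and 5.36, 5.92 and 5.70 on the 4T1-SC arrays, which overlap, and differed by 0.25 ± 0.20 (adjusted p 0.703). The Atf3 signal was weak, with deposited intensities of 112.6 to 160.6 where the array medians were 96.6 to 112.6. Its difference was 0.09 without background correction. Ier3, an early response protein linked to survival and to NF-κB signalling that is not itself a transcription factor, read 13.08, 13.89 and 13.90 on the arrays labelled 4T1-MMP3lo and 12.83, 13.14 and 13.44 on the 4T1-SC arrays. Its groups overlapped through the first array labelled 4T1-MMP3lo, and the difference was 0.48 ± 0.28 (adjusted p 0.553).

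Groups without overlap were found for 3 of the 9 genes, against 17.7% of all genes. Jun and Egr1 were higher in the cells labelled 4T1-MMP3lo, as were 9.62% of all genes, and Jund was lower, as were 8.07% of all genes. With the date as a block, which compares the arrays of each date with each other, 0 of the 9 genes passed, where 2.08% of all genes did, while 5 had an unadjusted p under 0.05, as did 16.3%. The blocked adjusted p values of Egr1, Jun and Junb were 0.121, 0.160 and 0.222. The cells labelled 4T1-MMP3lo were above 4T1-SC on all 3 dates in 4 of the 9 genes (Jun, Egr1, Atf3, Ier3), as in 20.3% of all genes, and below in Jund, as in 17.6%. Egr1 was higher in the cells labelled 4T1-MMP3lo by 1.16, 0.53 and 0.65 on the 3 dates. Jun was higher by 0.30, 0.81 and 0.99, and Ier3 by 0.25, 0.74 and 0.46. Junb differed by 0.08, -1.71 and -1.28 on the 3 dates, and Fos by 0.04, -1.08 and -1.03. Those 2 genes were thus level on the first date and lower in the cells labelled 4T1-MMP3lo on each later date.

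No gene of the 9 passed in the unweighted fits over all 6 arrays. Which genes passed in other fits depended on the arrays kept and on their weights. With array weights 8 of the 9 passed, where 3103 of all 9348 genes did. Without 4T1-SC replicate 1, Junb and Fos fell in the cells labelled 4T1-MMP3lo, by 1.65 and 1.06 on the log2 scale. Their SE were 0.22 and 0.19 and their limma adjusted p 0.00274 and 0.00900. Junb and Fos were the 2 of the 9 genes that passed, and 10.7% of all genes passed in the same fit. That fit keeps 4T1-MMP3lo replicate 1 without a 4T1-SC array of the first date, so it mixes group and date in part. The other 7 had adjusted p of 0.0730 (Fosb) to 0.777 (Atf3). With the later dates alone, an alternative chosen after the values were seen, Junb (-1.50, adjusted p 0.00504), Fos (-1.05, adjusted p 0.0171) and Jun (0.90, adjusted p 0.0223) passed, where 10.8% of all genes did. The difference of Egr1 was 0.52 without this array (adjusted p 0.106) and that of Jun 0.63 (adjusted p 0.166). Without 4T1-SC replicate 2 instead, the difference of Junb was -0.54 (adjusted p 0.837), that of Fos -0.43 (adjusted p 0.757), that of Fosb -0.04 and that of Fosl2 0.11. 4T1-SC replicate 1 lay below both other 4T1-SC arrays for 8 of the 9 genes (all but Fosl2), as for 38.6% of all genes, and by over 1 log2 unit below their mean for Fos, Fosb and Junb, as for 6.89% of all genes.

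**Figure D2:**
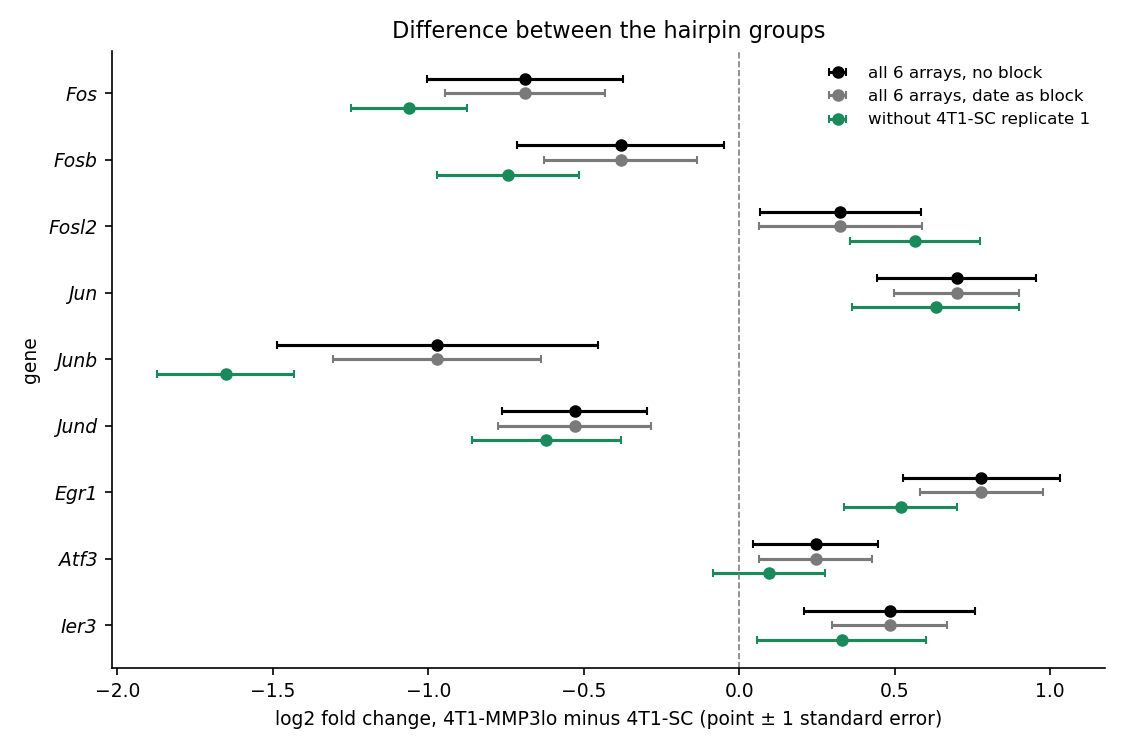
Log2 fold change of each gene, arrays labelled 4T1-MMP3lo minus 4T1-SC arrays (x axis, points with bars of 1 standard error), in the fit over 6 arrays, with the date as a block, and without 4T1-SC replicate 1. The fold changes keep their signs in all 3 fits, and Junb goes to -1.65 and Fos to -1.06 when 4T1-SC replicate 1 is left out. That last fit keeps 4T1-MMP3lo replicate 1 without a 4T1-SC array of its date.

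The dates could be compared because each held 1 array of either group. In limma's moderated F test of date with the group as a term, 0 of the 9 genes passed, where 0.171% of all genes did. Junb and Ier3 had an unadjusted p under 0.05, as did 13.4% of all genes, and their adjusted p were 0.336 and 0.349. Over both groups Junb averaged 1.33 ± 0.41 more on the second date than on the first and 1.18 ± 0.41 more on the third (adjusted p 0.182 and 0.289, where 0.203% and 0.182% of all genes passed), and Ier3 0.56 ± 0.23 and 0.71 ± 0.23 more (adjusted p 0.245 and 0.262). The first date was the lowest within both groups for 4 of the 9 genes (Jun, Junb, Egr1 and Ier3), as for 21.9% of all genes. For the third date against the second the adjusted p was 0.9995 for each of the 9, and 0% of all genes passed.

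Within each group the later dates stood differently to the first. In the cells labelled 4T1-MMP3lo, Junb was 0.44 and 0.49 higher on the later dates than on the first, against 2.23 and 1.86 in 4T1-SC. For Fos the later dates stood at 0.14 and -0.10 in the cells labelled 4T1-MMP3lo, against 1.26 and 0.98 in 4T1-SC, and for Fosb at 0.26 and -0.02 against 1.41 and 0.76. Fosl2 was 0.35 and 0.36 higher in the cells labelled 4T1-MMP3lo and 0.92 and 0.52 lower in 4T1-SC. The test of this difference, the interaction of group with first against later dates, gave -1.58 ± 0.33 for Junb (adjusted p 0.0993), -1.10 ± 0.32 for Fos (adjusted p 0.196) and 1.07 ± 0.33 for Fosl2 (adjusted p 0.208). None of the 9 genes passed it and 0.877% of all genes did, while these 3 had an unadjusted p under 0.05, as did 16.3% of all genes. The first date is a single array in each group, so this difference rests on those 2 arrays.

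**Figure D3:**
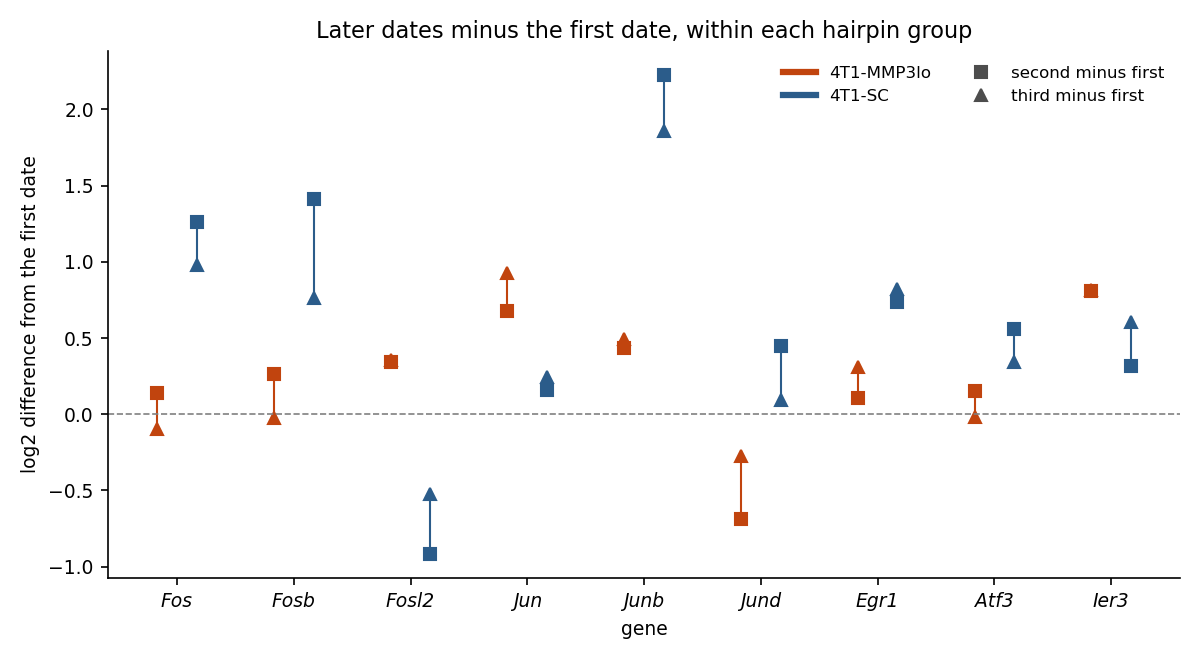
Difference of the second (squares) and the third (triangles) date from the first date of the same group (y axis, log2), for the arrays labelled 4T1-MMP3lo left of the 4T1-SC arrays in each gene. In 4T1-SC, Junb stands at 2.23 and 1.86 and Fos at 1.26 and 0.98, against 0.44 and 0.49 for Junb and 0.14 and -0.10 for Fos in the cells labelled 4T1-MMP3lo.

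Of 34 other immediate early genes, 25 were measured and none passed the hairpin test, where 1.09% of all genes did. An unadjusted p under 0.05 was found for 5, against 12.2% of all genes. In the cells labelled 4T1-MMP3lo 13 were higher and 12 lower, with a median of 0.02. The 2 with the largest change were Ccn1, a secreted matrix protein under serum response factor and YAP, and Dusp1, a phosphatase that switches off p38, JNK and ERK kinases. Ccn1 read 9.45, 10.47 and 10.32 on the arrays labelled 4T1-MMP3lo and 9.77, 8.06 and 8.44 on the 4T1-SC arrays, a difference of 1.32 ± 0.45 (adjusted p 0.279). Its order on the 4T1-SC arrays was the reverse of that of Junb, highest on the first date. Dusp1 read 9.32, 10.19 and 10.46 on the arrays labelled 4T1-MMP3lo and 8.46, 9.32 and 9.13 on the 4T1-SC arrays. It was higher in the cells labelled 4T1-MMP3lo on all 3 dates, by 0.86, 0.87 and 1.33, and its mean difference of 1.02 had an adjusted p of 0.269 in the unblocked fit and 0.0492 with the date as a block. With the block 2.08% of all genes passed. The blocked call ended without background correction (adjusted p 0.0749), at an offset of 50 (0.0509) and without the detection filter (0.138).

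**Figure D4:**
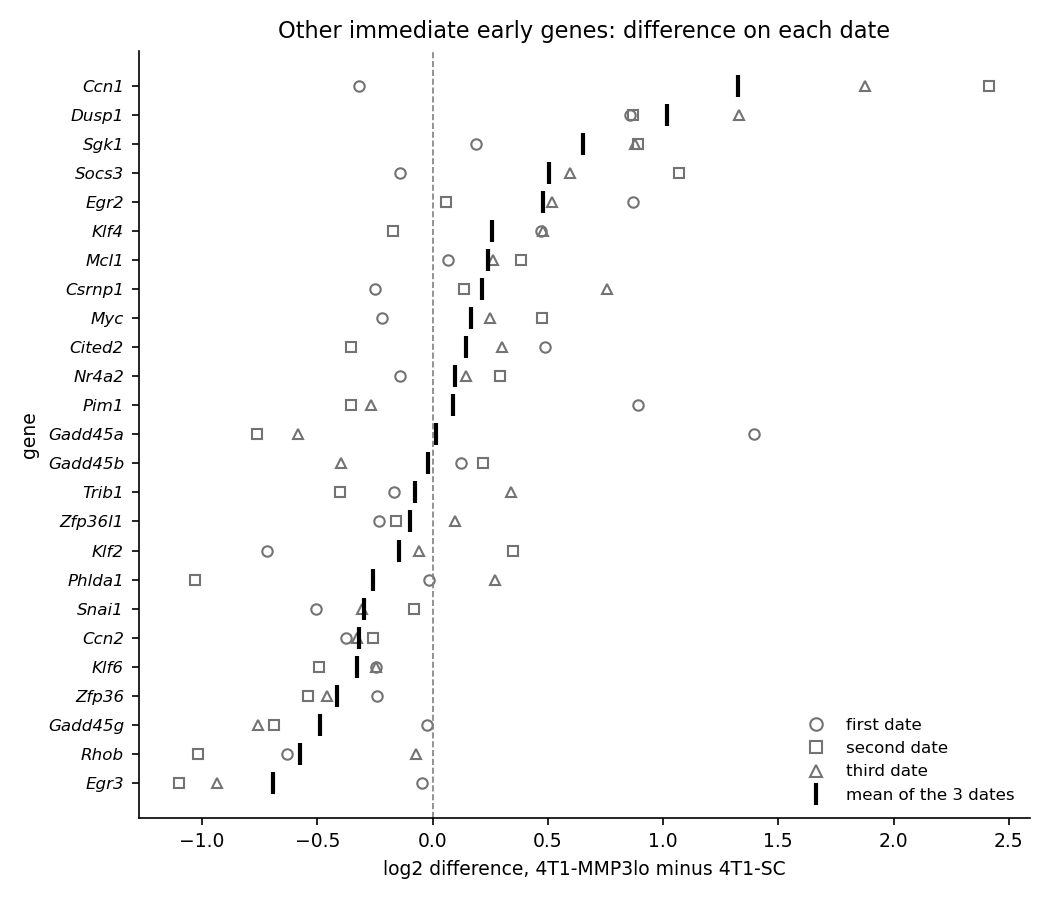
Log2 difference of the arrays labelled 4T1-MMP3lo from the 4T1-SC arrays (x axis) on each date (open symbols) and on average (bars) for the 25 other immediate early genes measured. Dusp1 lies right of 0 on all 3 dates, and Ccn1 lies left of 0 on the first date only.

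None of the genes that signal to AP-1 passed the hairpin test. Over all genes 1.09% passed it and 12.2% had an unadjusted p under 0.05. Of 25 upstream kinases and factors, 18 were measured and 0 passed (1 unadjusted, Mapk9), with a median of -0.13. The largest changes were those of Mapk9, the gene of JNK2, which phosphorylates Jun, and of Srf, the gene of serum response factor. Mapk9 read 9.51, 9.67 and 9.73 on the arrays labelled 4T1-MMP3lo and 10.17, 10.37 and 10.52 on the 4T1-SC arrays, without overlap (-0.72 ± 0.18, adjusted p 0.133). Srf read 9.67, 9.67 and 9.65 on the arrays labelled 4T1-MMP3lo and 9.60, 8.87 and 9.08 on the 4T1-SC arrays (0.48 ± 0.22, adjusted p 0.446). Of 10 genes that ERK signalling switches on, 8 were measured and 0 passed (0 unadjusted). Their differences were -0.09 to 0.15, with Spry4 (0.15) and Dusp4 (0.13) having the largest. Among 13 further leucine zipper partners, 6 were measured and 0 passed (0 unadjusted), the largest being Jdp2 (0.58, adjusted p 0.532), a repressor of AP-1, and Maff (0.27, adjusted p 0.758), a small Maf protein. Of 12 heat shock genes, which mark stress of a culture, 11 were measured and 0 passed (0 unadjusted), with Hsph1 at 0.56 and Dnajb1 at -0.28.

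Of 18 known AP-1 target genes, 15 were measured and 0 passed the hairpin test, where 1.09% of all genes did. Tnc alone had an unadjusted p under 0.05 there, as did 12.2% of all genes. In the F test of date 2 passed, Mmp9 and Mmp13, where 0.171% of all genes did. An unadjusted date p under 0.05 was found for 9 of the 15, against 13.4% of all genes. Mmp13, the gene of collagenase-3, read 8.74, 12.80 and 12.72 on the arrays labelled 4T1-MMP3lo and 9.97, 12.78 and 12.86 on the 4T1-SC arrays (adjusted p 0.0258). Mmp9, the gene of gelatinase B, read 8.42, 10.50 and 10.66 on the arrays labelled 4T1-MMP3lo and 9.42, 11.76 and 11.96 on the 4T1-SC arrays (adjusted p 0.0255). Both genes rose from the first date to the later dates in both groups, Mmp13 by 3.44 on the second date and by 3.44 on the third and Mmp9 by 2.21 and 2.39. Both date calls ended without background correction (adjusted p 0.0807 for Mmp13 and 0.0644 for Mmp9), without the detection filter (0.333 and 0.245), without 4T1-MMP3lo replicate 3 (0.107 and 0.172) and without 4T1-SC replicate 3 (0.0864 and 0.189), and that of Mmp9 also without 4T1-SC replicate 1 (0.0850). The targeted gene Mmp3 stood 2.76 and 2.70 higher on the later dates in the cells labelled 4T1-MMP3lo and 1.46 and 1.52 higher in 4T1-SC, with an adjusted p of 0.142 in the F test.

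Against the hairpin, Mmp9 differed by -0.997, -1.25 and -1.31 on the 3 dates, with a mean of -1.19 (adjusted p 0.613 unblocked and 0.0294 with the date as a block). Tnc, the gene of the matrix protein tenascin C, read 6.19, 7.49 and 7.49 on the arrays labelled 4T1-MMP3lo and 7.08, 9.34 and 8.90 on the 4T1-SC arrays, with a mean difference of -1.38 (adjusted p 0.404 unblocked and 0.0373 blocked). Each of these 2 genes was lower in the cells labelled 4T1-MMP3lo on all 3 dates, as were 17.6% of all genes. The blocked test was passed by 2.08% of all genes. Both blocked calls ended without background correction (adjusted p 0.0603 for Mmp9 and 0.119 for Tnc) and without the detection filter (0.115 and 0.159), and that of Tnc at an offset of 50 (0.0584).

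**Figure D5:**
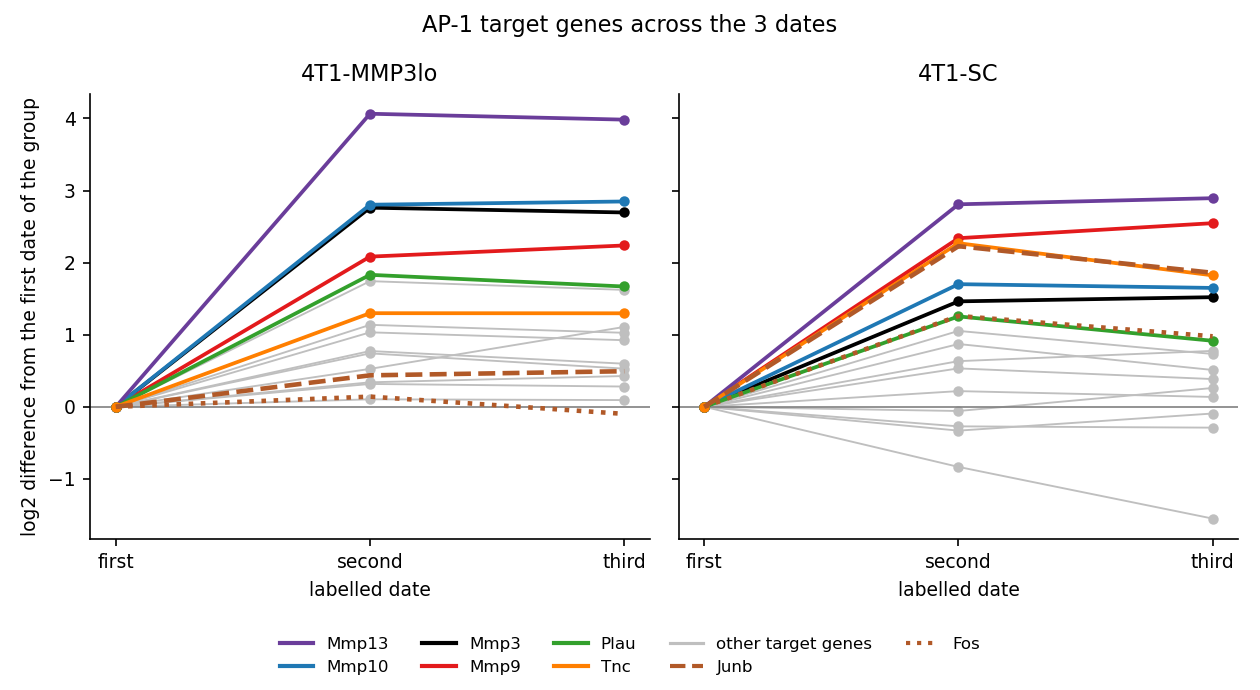
Log2 difference from the first date of the same group (y axis) over the 3 dates (x axis) for the 15 AP-1 target genes measured, with Junb and Fos in brown, for the arrays labelled 4T1-MMP3lo left of the 4T1-SC arrays. Mmp13 and Mmp9 stand high on both later dates in both groups, while Junb and Fos do so in 4T1-SC.

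The genes whose values over the 6 arrays were most like those of Junb, out of all 9348, were Rnf130 (Pearson's r = 0.998), Epb41l2 (0.997), Flrt3 (0.996), Glt8d1 (0.995) and Plac8 (0.995). Those most like Egr1 were Car9 (0.997), Rbp2 (0.995), Rfx2 (0.990), Mtmr11 (0.986) and Papss1 (0.984). These are the highest of many values over 6 arrays that share 3 dates, and are a description only. Car9, the gene of carbonic anhydrase 9, differed by 1.68 between the cells labelled 4T1-MMP3lo and 4T1-SC (adjusted p 0.111), and Plac8 by -1.42 (adjusted p 0.436).

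Among the marker lists, Cldn7, the gene of claudin 7 of epithelial junctions, was the 1 epithelial marker of 6 measured that passed the hairpin test. It was lower in the cells labelled 4T1-MMP3lo (-1.62 ± 0.24, limma adjusted p 0.0241), where 1.09% of all genes passed. All 6 epithelial markers had a negative difference (median -0.69), as did 47.7% of all genes. The call of Cldn7 ended without background correction (-0.84, adjusted p 0.0784), without the detection filter (0.0747), without 4T1-MMP3lo replicate 2 or 3 (0.153 each) and without 4T1-SC replicate 2 (0.0921) or 3 (0.122). The summed linear level of the 6 epithelial markers ran from 11820 to 13148 on the arrays labelled 4T1-MMP3lo. On the 4T1-SC arrays it ran from 12304 to 19331, where 4T1-SC replicate 1 was the lowest. Of the fibroblast markers Pdgfra alone of 10, and of the endothelial markers Eng alone of 8, was detected on all 6 arrays. Fbln1 was detected on 4 arrays and Kdr on 3, while 4 markers of each list, Col1a1 and Pecam1 among them, were detected on none. The 2 fibroblast markers measured, of 10, had a median difference of 0.89 and 0 passed. Pdgfra read 7.91, 8.85 and 8.94 on the arrays labelled 4T1-MMP3lo and 6.62, 8.28 and 8.0 on the 4T1-SC arrays (0.93 ± 0.45, adjusted p 0.470). Fbln1 read 5.40, 5.76 and 5.62 on the arrays labelled 4T1-MMP3lo and 4.57, 4.6 and 5.05 on the 4T1-SC arrays, without overlap (0.85 ± 0.21, adjusted p 0.120). Their summed linear level was 282 to 540 on the arrays labelled 4T1-MMP3lo and 122 to 335 on the 4T1-SC arrays, lowest on 4T1-SC replicate 1. Krt19 stood at 8.07, 7.89 and 8.05 on the arrays labelled 4T1-MMP3lo and 7.76, 9.04 and 9.17 on the 4T1-SC arrays, low on 4T1-SC replicate 1 like Junb and Fos. The part of this in the differences of the early genes was not tested.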

How the data were processed

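Total RNA of 6 cultures of 4T1 cells, 3 of each hairpin group, was measured on Illumina MouseWG-6 bead arrays. The authors deposited the scanner intensity of each of 45281 probes on a linear scale, without normalization between arrays, and beside it a deposited detection p-value. A second deposited table, of log2 values, had the rank order of each array's intensities (rank correlation 1) and nearly equal medians (6.75), as quantile normalization gives. Its software is not given in the sources used here, and it served as an alternative. It gave the same results as quantile normalization without background correction, so these 2 alternatives are 1 check. Nothing in the files fixes the depth of an array, and the number of arrays limits the precision.

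Intensities were background corrected with normexp on the detection p-values, quantile normalized and log2 transformed with limma (version 3.58.1, R 4.3.3, neqc, offset 16). Probes with a detection p-value below 0.05 in 3 arrays or more were kept (16969), and the brightest named probe stood for a gene (9348 genes). Of the probes, 34885 had 1 gene symbol, 18 several and 10378 none. Groups were compared with lmFit and eBayes, without a block because the study's methods name unpaired tests, with Benjamini-Hochberg adjustment over all genes. The labels give each date to 1 array of each group, and the date was therefore also used as a block. Deviations from the group means correlated at r = 0.442, 0.212 and 0.283 between arrays of the same date. They correlated at 0.309 and 0.235 between the 2 later dates and at -0.388 to -0.291 between the first and a later date. The deviations of a group cancel out for each gene, so the negative values are tied to the 0.442 of the first date. They are no separate sign that the first date stands apart, which was not tested. The values do not tell the later dates from each other. Replicates are described as biological, and p-values measure the spread between these arrays.

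The 10 genes and the lists of related genes were chosen with earlier results of these data known. All 10 are described; from other lists up to 4 genes past the threshold for hairpin or date were named, otherwise the 2 with the largest change, with Mmp3 always and Krt19 added after its values were seen. Alternatives were an offset of 50, no background correction, the authors' table, median shift in place of quantile normalization, the mean of all probes of a gene, no filter, array weights, the methods' t-test, each array left out, and the later dates alone. Promoter windows are those of RefSeq (GRCm38.p6). The scripts were tested on simulated data. Figures were drawn with matplotlib 3.10.9.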

Additional observations from a re-analysis of the deposited data

Results flagged for a closer look

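A total of 3 genes of the related lists changed differently from the first to the later dates in the 2 groups by limma's interaction test, which 82 of 9348 genes passed. For Ccn1 the later-minus-first difference in the cells labelled 4T1-MMP3lo exceeded that in 4T1-SC by 2.47 on the log2 scale (adjusted p 0.0367), being 0.95 in the cells labelled 4T1-MMP3lo and -1.52 in 4T1-SC. For Gadd45a, a growth arrest and DNA damage gene, it was -2.07 (adjusted p 0.0367), with 0.61 in the cells labelled 4T1-MMP3lo and 2.68 in 4T1-SC. For Ccl2, a chemokine gene, it was 2.87 (adjusted p 0.0475), with 1.68 in the cells labelled 4T1-MMP3lo and -1.19 in 4T1-SC. All 3 calls ended without the detection filter (adjusted p 0.0945 for Ccn1, 0.0663 for Gadd45a and 0.130 for Ccl2), where 0 genes passed. Without background correction that of Gadd45a held (0.0346), and those of Ccn1 (0.0542) and Ccl2 (1.10, adjusted p 0.108) ended. Ccl2 also ended at an offset of 50 (1.74, adjusted p 0.0605), and Ccn1 with the mean of its probes (1.51, adjusted p 0.0543). The first date is 1 array per group, so these differences rest on both first arrays, and the cause was not tested.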

How the results depend on the processing

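The log2 difference between the hairpin groups kept its sign for all 9 genes under every alternative run, and so did the date by hairpin difference. The number of the 9 genes past the hairpin threshold was 0 in the main fit and 0 to 2 when 1 array was left out. It was 3 with the later dates alone, where 10.8% of all genes passed. With array weights it was 8 (all but Atf3), where 3103 of all 9348 genes passed. The number for date was 0, and 0 to 1 when 1 array was left out (Junb without 4T1-MMP3lo replicate 1). Of all genes, 102 passed the hairpin test, against 12 without background correction, 12 in the authors' table, 38 at an offset of 50, 30 without the filter, 194 with the replicate block by date, 3103 with array weights, 1012 with the later dates alone and 0 by the methods' t-test after adjustment (1054 unadjusted, 1138 unadjusted in limma). Leaving out 1 array gave 0 to 1000, the highest without 4T1-SC replicate 1. Array weights ran from 0.175 for 4T1-SC replicate 1 to 5.05 for 4T1-MMP3lo replicate 3. Of all probes, 127 passed, against 20 without background correction, 20 in the authors' table, 63 at an offset of 50, 8 without the filter and 234 with the replicate block. The block moved none of the 9 genes past the threshold, and neither did the methods' t-test. For date, 16 genes passed, against 0 without background correction, 0 in the authors' table, 0 without the filter and 0 to 266 with 1 array left out. For the date by hairpin difference, 82 passed, against 24, 24, 53 and 0 without background correction, in the authors' table, at an offset of 50 and without the filter. Median shift in place of quantile normalization gave 120 genes for hairpin, 19 for date and 71 for the date by hairpin difference, and the mean of all probes of a gene gave 90, 14 and 110. The authors' table and the setting without background correction gave the same values and are 1 check, not 2. In both the hairpin difference was -0.39 for Fos, -0.21 for Fosb, 0.46 for Jun and 0.09 for Atf3. It was 0.75 for Ier3 without 4T1-MMP3lo replicate 1, -0.34 for Jund without 4T1-MMP3lo replicate 2, 0.37 for Atf3 without 4T1-SC replicate 2, and -0.74 for Fosb, 0.56 for Fosl2 and 0.10 for Atf3 without 4T1-SC replicate 1.

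Date differences turned sign only when 1 array was left out. Jund on the second date against the first became 0.26 without 4T1-MMP3lo replicate 1 and 0.36 without replicate 2, and on the third date 0.29 without 4T1-MMP3lo replicate 1 and 0.01 without 4T1-SC replicate 3. Without 4T1-SC replicate 1, Fos (-0.11), Fosb (-0.11) and Atf3 (-0.030) on the third date turned negative, and Fosl2 became 0.25 on the second date and 0.45 on the third. Fosl2 was 0.13 on the second date without 4T1-SC replicate 2 and 0.04 on the third without 4T1-SC replicate 3. With 1 array left out, the differences from the first date ranged over -0.60 to 0.36 on the second date and -0.46 to 0.29 on the third for Jund, -0.82 to 0.25 and -0.62 to 0.45 for Fosl2, and on the third date over -0.11 to 0.99 for Fos, -0.11 to 0.85 for Fosb and -0.030 to 0.35 for Atf3. The cause was not tested in any of these.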
